A study of Mus musculus with 24 samples.

Results

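Superoxide and hydrogen peroxide are removed by small families of enzymes, and the transcripts of 10 of these enzymes were examined in mouse visceral adipose tissue. The genes were chosen by symbol as catalase (Cat), the superoxide dismutases Sod1, Sod2 and Sod3, the glutathione peroxidases Gpx1, Gpx3 and Gpx4, and the peroxiredoxins Prdx1, Prdx3 and Prdx6. They are 10 of the 54232 genes in the count table, and each had over 10 counts in all, so that all 10 were among the 26116 genes tested.

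RNA was sequenced from adipose tissue of C57BL6 male mice in 4 groups of 6 libraries, and the series description gives 6 mice per group. The animals, aged 10 weeks by that description (the methods give an age range at purchase), had either a 5/6 nephrectomy (PNx), a model of renal failure, or a sham operation. Every animal, controls included, received a lentivirus injected into the abdomen that carried an adiponectin promoter, which is active in adipocytes. The virus encoded green fluorescent protein (GFP) in the groups Control (sham) and PNx, and NaKtide, a peptide designed to block Na,K-ATPase signaling through the kinase Src, linked to GFP in the groups NaKtide (sham) and PNx+NaKtide. The labels number the libraries within each group and name no animal, litter or batch, so p-values measure the spread between these libraries.

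Superoxide leaks from the respiratory chain and is made on purpose by NADPH oxidases. Superoxide dismutases turn it into hydrogen peroxide, with SOD1 in the cytosol, SOD2 in the mitochondrial matrix and SOD3 outside the cell. Catalase in peroxisomes, glutathione peroxidases using glutathione, and peroxiredoxins, most of them using thioredoxin, then reduce the peroxide to water. GPX4 and PRDX6 also act on oxidized lipids. Adipocytes are rich in catalase, secrete SOD3 and release GPX3, a plasma enzyme.

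The glutathione peroxidases divide into enzymes that use selenocysteine, which is encoded by a recoded stop codon, and enzymes that use cysteine at the same place. The coding sequence around that codon is shown because it separates the 3 glutathione peroxidases studied here from Gpx5, a cysteine enzyme of the epididymis that had the largest share of the family in 21 of the 24 libraries. Capitals mark the catalytic codon, which was found as the in-frame TGA in the first 3 sequences and by alignment to Gpx3 in the last 2. The sequences, each of 27 bases written 5′ to 3′ on the coding strand, come from the GRCm38 reference.
Gpx1 (codon 47): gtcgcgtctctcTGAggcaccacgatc
Gpx3 (codon 73): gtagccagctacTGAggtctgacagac
Gpx4 (codon 129): gtggcctcgcaaTGAggcaaaactgac
Gpx5 (codon 73): gtggctacctatTGCggtctgacaatc
Gpx6 (codon 73): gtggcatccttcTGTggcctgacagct
Over aligned positions of the translated sequences, Gpx5 was 65.6% identical to Gpx3 and Gpx6 67.0%, against 52.4% for Gpx1 and 34.8% for Gpx4. By this measure Gpx5 and Gpx6 were closer to Gpx3 than Gpx1 and Gpx4 were.

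The libraries were shallow, with 679250 to 2979505 counts each, and the 10 genes together held 0.0319% of all counts. Where no read was counted, up to 3 counts remain possible, or 0.739 to 5.91 CPM (the count per 1000000 counts of the library, scaled between libraries by the trimmed mean of M values) depending on the library, a limit that covers counting error only. Most counts, 79.9%, lay on the 16.8% of genes whose exons overlap a gene on the opposite strand (70.2% to 86.5% per library). The libraries were made with a stranded kit and the strand setting of the counting was not given in the sources used here. None of the 10 genes shares an exon base with another annotated gene on either strand. The mitochondrial gene mt-Nd6, looked at after its values were seen, is the only mRNA that the minus strand of that genome encodes. Its counts per kb were 67.6 times those of the plus-strand mitochondrial mRNAs (21 to 194 times in single libraries), an asymmetry that counting without strand would not give and counting of the opposite strand would. The counts of the 10 genes may therefore hold only a minor part of their own reads, and their levels are given as the table has them. At least 11 of 14 adipocyte markers were detected in every library, but the tissue also held transcripts of other tissues, among them an epididymal list of 12 genes that summed to 694 to 2014 CPM in 19 of the 24 libraries. Because these are bulk samples, fewer cells of a type and less RNA per cell cannot be told apart.

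Per length of transcript, Gpx3 had the highest level of the 10 genes in Control, with 39.2 ± 11.8 FPKM (fragments scaled by the authors to transcript length and by a factor for each library, mean ± SD, n = 6). Gpx4 followed with 18.0 ± 10.2 FPKM, Sod1 with 11.8 ± 2.64 and Prdx1 with 9.88 ± 2.12. Gpx1 reached 5.60 ± 3.53 FPKM, Prdx6 3.65 ± 1.80 and Cat 2.96 ± 1.57. The lowest levels were those of Sod2 with 2.07 ± 0.947 FPKM, Prdx3 with 1.97 ± 0.967 and Sod3 with 0.762 ± 0.288. The Control ranges of each pair of neighbours in this order overlapped, so the order of neighbours was not resolved beyond the spread between libraries. Gpx5 was far above all of them, at 231 ± 70.2 FPKM in Control.

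Over all 24 libraries the 10 genes differed widely in how steady they were. In CPM, Prdx1, a cytosolic peroxiredoxin, had a coefficient of variation of 24.7% and Sod1 one of 32.1%. At the other end, the coefficient of variation was 221% for Sod3, 183% for Cat and 157% for Gpx1. A large part of this spread came from single libraries. PNx replicate 6 was the highest of the 24 libraries for all 10 genes, while it was the highest for 18.1% of all genes tested (4725 of 26116). The 10 genes summed to 1114 CPM in that library, against 480.4 CPM in the next highest, NaKtide replicate 6, and 123.5 to 419.6 CPM in the other 22. Without these 2 libraries the coefficient of variation was 46.6% for Sod3, 72.3% for Cat and 61.7% for Gpx1, and 18.6% for Prdx1. Results are therefore given with and without PNx replicate 6 and NaKtide replicate 6.

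**Figure D1:**
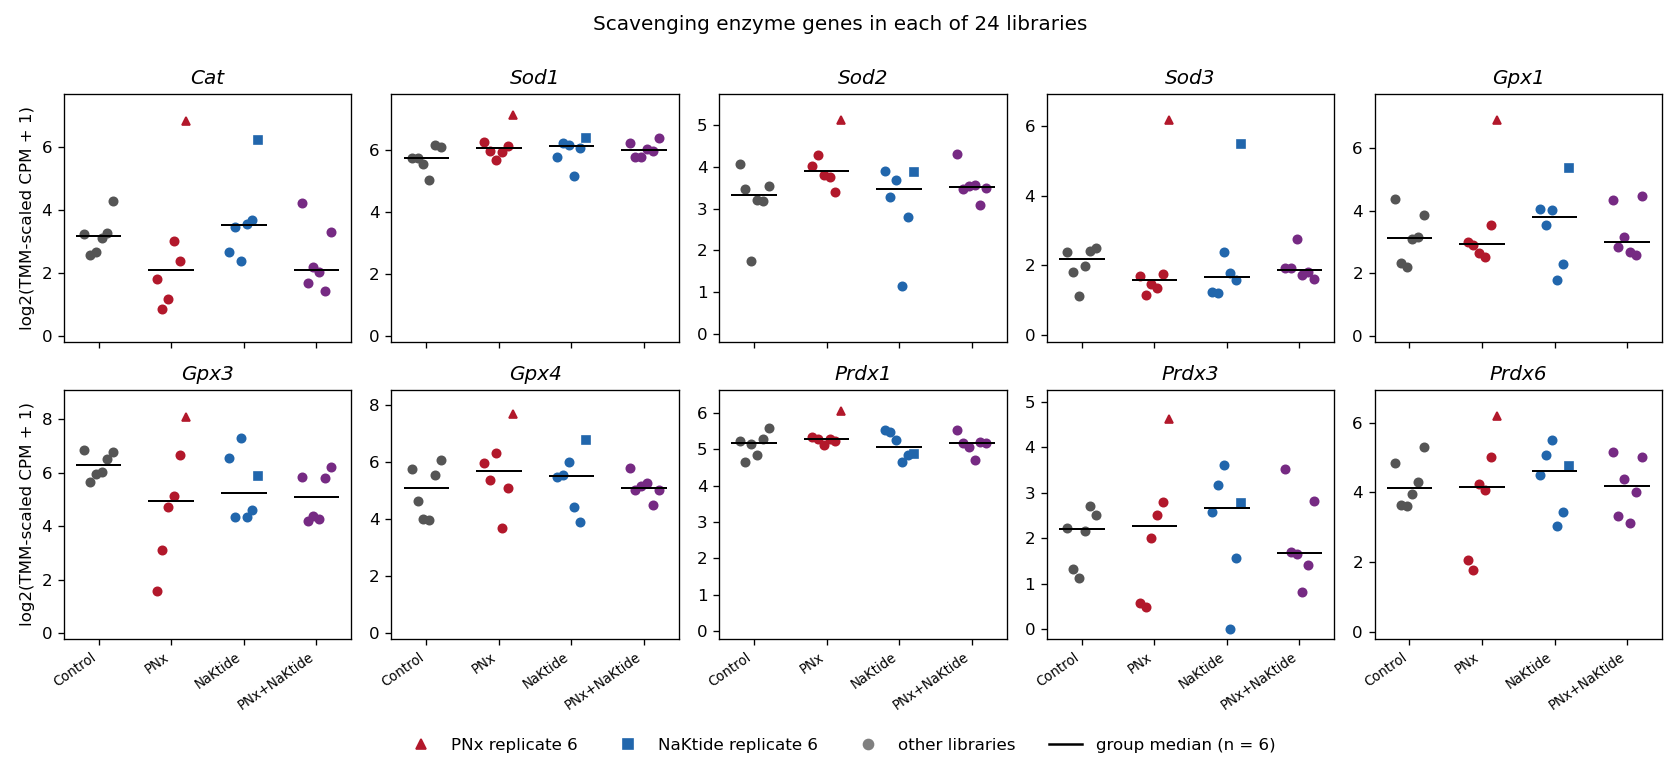
Level of each gene, as log2(TMM-scaled CPM + 1), in each of the 24 libraries by group, with replicates 1 to 6 from left to right and a bar at each group median. PNx replicate 6 (triangle) is the highest library in all 10 panels, and NaKtide replicate 6 (square) is the second highest for Cat, Sod3, Gpx1 and Gpx4.

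The comparison of PNx with Control asks what renal failure changes in adipose tissue of animals that carry only GFP. None of the 10 genes passed the test (edgeR quasi-likelihood F-test, BH-adjusted p under 0.1), where 20 of 26116 genes (0.0766%) were called, all of them lower in PNx. At an unadjusted p under 0.05, 1 of the 10 genes (Sod3) was counted, against 6636 genes (25.4%) over the whole table. The log2 fold change was above 0 for 9 of the 10 genes and their median was 0.91, beside a median of 0.36 over all genes tested. DESeq2, which scales the libraries differently, called 7764 genes (30.1%). It gave no p for Cat and Sod3, whose counts it marked as outliers, and of the other 8 it called 5, namely Sod1, Sod2, Gpx1, Gpx4 and Prdx1. The values by gene show how far the edgeR figures rest on 1 library, and DESeq2 was not run without it.

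Sod3, the extracellular dismutase (GRCm38 chr5:52363791-52371418, plus strand), had the largest log2 fold change. In Control it ranged from 1.18 to 4.69 CPM with a median of 3.55. In PNx the lowest library had 1.21 CPM, the median was 1.99 and the highest library, replicate 6, had 70.2 CPM. The other 5 PNx libraries averaged 1.83 ± 0.475 CPM (SD, n = 5) and lay inside the Control range, so the fitted log2 fold change of 1.99 (SE 0.96, BH-adjusted p = 0.193) came from replicate 6. Without PNx replicate 6 the log2 fold change of Sod3 was -0.82 (SE 0.73, BH-adjusted p = 0.429). All of these Control and remaining PNx values rest on 2 to 9 counts per library, near the limit that 0 counts leave.

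Sod1, the cytosolic copper-zinc dismutase (chr16:90220754-90226329, plus strand), ranged from 32.1 to 70.9 CPM in Control with a median of 53.0. In PNx it ranged from 50.7 to 140.4 CPM with a median of 66.0. Its log2 fold change was 0.51 (SE 0.30, BH-adjusted p = 0.267), and 0.25 without PNx replicate 6. Sod2, the mitochondrial manganese dismutase (chr17:13006846-13040063, plus strand), had 2.37 to 15.8 CPM in Control with a median of 9.09. In PNx it had 9.503 to 34.0 CPM with a median of 14.1. Its log2 fold change was 0.90 (SE 0.45, BH-adjusted p = 0.204), and 0.58 without PNx replicate 6. For both intracellular dismutases 2 of 6 PNx libraries lay above the highest Control library in CPM and none below the lowest. In FPKM the groups stood further apart. Sod1 had 7.615 to 15.01 FPKM in Control and 14.73 to 31.65 in PNx, and Sod2 had 0.5873 to 3.516 and 2.217 to 7.949. Apart from gene length, the ratio of FPKM to CPM is set by the library and not by the gene. Sod1 had 53.38 CPM and 11.45 FPKM in Control replicate 1, and 76.14 CPM and 30.77 FPKM in PNx replicate 1. The wider gap is therefore not particular to these genes.

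Cat, which encodes catalase (chr2:103453849-103485160, minus strand), gave opposite pictures in the group means and in most libraries. In Control it ranged from 5.00 to 18.7 CPM with a median of 7.97. In PNx the lowest library had 0.808 CPM, the median was 3.31 and replicate 6 had 113.2 CPM. Thus 4 of the 6 PNx libraries lay below the lowest Control library and 1 was 12.7-fold the Control mean. The 4 low libraries, replicates 1, 2, 3 and 5, rest on only 10, 2, 5 and 7 counts, and the Control libraries on 9 to 28. The log2 fold change was 1.27 (SE 0.95, BH-adjusted p = 0.374) with all libraries and -1.58 (SE 0.74, BH-adjusted p = 0.147) without PNx replicate 6. When PNx replicate 6 and NaKtide replicate 6 were both left out, Cat was the only one of the 10 genes called, with a log2 fold change of -1.59 (SE 0.60, BH-adjusted p = 0.0846). In that fit 5575 of 25551 genes (21.8%) were called. The 2 libraries were set apart because the 10 genes, Cat among them, were high there, so this call is a description and not independent support. NaKtide replicate 6 is in neither of the compared groups and bears on the fit through the spread that all groups share.

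Gpx3, the secreted glutathione peroxidase (chr11:54902453-54910377, plus strand), had the widest span in PNx. In Control it ranged from 49.0 to 115.6 CPM with a median of 78.0. In PNx it ranged from 1.97 to 271.7 CPM with a median of 29.9, and 4 of the 6 libraries lay below the lowest Control library. Its log2 fold change was -0.15 (SE 0.74, BH-adjusted p = 0.908) and 0.20 when libraries were scaled by their total counts alone. Without PNx replicate 6 it was -1.28, with a BH-adjusted p of 0.193 when NaKtide replicate 6 was left out as well. The cause of the span was not tested, but the epididymal list moved beside Gpx3 in PNx replicates 1 to 5.
The summed epididymal markers were 24.9, 194.6, 527.8, 1123 and 1849 CPM in PNx replicates 1 to 5, and Gpx3 was 1.97, 7.67, 25.2, 34.6 and 99.8 CPM in the same libraries, so both stood in the same order. In PNx replicate 6, which had the most Gpx3, these markers summed to 93.2 CPM. In Control, replicate 2 was the lowest for both, at 694 CPM of markers and 49.0 CPM of Gpx3. The 2 did not stand in the same order in the NaKtide groups. NaKtide replicate 2 had 1628 CPM of markers and 19.2 CPM of Gpx3, and PNx+NaKtide replicate 6 had 847.2 and 74.0 CPM.

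Gpx1, the cytosolic and mitochondrial enzyme (chr9:108338903-108340343, plus strand), ranged from 3.55 to 19.5 CPM in Control with a median of 7.80. In PNx it had 4.71 to 10.7 CPM in replicates 1 to 5 and 118.9 CPM in replicate 6. The log2 fold change was 1.44 (SE 0.75, BH-adjusted p = 0.218) with all libraries and -0.46 without PNx replicate 6. Gpx4, the phospholipid hydroperoxide enzyme (chr10:80047166-80056439, plus strand), ranged from 14.6 to 65.6 CPM in Control with a median of 34.6. In PNx it ranged from 11.8 to 203.8 CPM with a median of 50.6, and its log2 fold change was 0.98 (SE 0.54, BH-adjusted p = 0.234), or 0.32 without PNx replicate 6. Leaving out PNx replicate 4, the lowest PNx library for Gpx4, gave a log2 fold change of 1.25 with a BH-adjusted p of 0.0723, in a fit that called 8645 genes (33.2%). Leaving out the lowest library raises the PNx mean by construction, so this call is a description and not independent support.

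Among the peroxiredoxins, Prdx1 (chr4:116685544-116700822, plus strand) was the steadiest gene in CPM. It ranged from 24.02 to 46.9 CPM in Control and from 33.6 to 65.7 CPM in PNx, with medians of 35.3 and 37.8. In FPKM the groups stood further apart, at 9.875 ± 2.116 in Control and 16.17 ± 4.145 in PNx (mean ± SD, n = 6). As for Sod1, the FPKM scaling of a library applies to all its genes alike. The log2 fold change of Prdx1 was 0.28 (SE 0.29, BH-adjusted p = 0.526), with an interval of -0.29 to 0.85. Prdx3, the mitochondrial member (chr19:60864051-60874556, minus strand), had 1.18 to 5.55 CPM in Control and 0.404 to 23.8 CPM in PNx. Its log2 fold change was 0.92 (SE 0.77, BH-adjusted p = 0.426), and -0.28 without PNx replicate 6. Prdx6, the 1-Cys member that also reduces phospholipids (chr1:161240112-161251219, minus strand), had 11.2 to 38.2 CPM in Control with a median of 16.6. In PNx it was 2.42 to 72.5 CPM with a median of 16.8, and its log2 fold change was 0.23 (SE 0.61, BH-adjusted p = 0.820) or -0.54 without PNx replicate 6. Prdx3 and Prdx6 shared their lowest PNx libraries, replicates 1 and 2, which were also the lowest 2 for Gpx3.

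Cell type markers moved beside these values. In PNx replicate 6 all 14 adipocyte markers were detected and summed to 6914 CPM, and in NaKtide replicate 6 they summed to 5245 CPM. The other 22 libraries had 126.4 to 1156 CPM. Erythrocyte markers (7 genes, mostly haemoglobins) also peaked there, with 1628 and 245 CPM respectively and at most 119.8 CPM elsewhere. Endothelial markers (5 genes) summed to 343.8 and 58.8 CPM in those libraries and at most 21.03 CPM elsewhere, and skeletal muscle markers (6 genes) to 4243 CPM in NaKtide replicate 6 only, against at most 106.8 CPM elsewhere. The same 2 libraries had 93.2 and 18.1 CPM of epididymal markers, with Lcn9 and Crisp1 at 0 in NaKtide replicate 6. The 14 adipocyte markers summed to 267.7 to 471.6 CPM in PNx replicates 1 to 5 and to 281.7 to 836.5 CPM in the 6 Control libraries, but single markers went both ways. The median of Adipoq, which encodes adiponectin, was 91.8 CPM in PNx and 33.8 CPM in Control, and that of Plin1, which encodes a lipid droplet protein, was 5.70 and 20.2 CPM (both named after their values were seen). The part of these other transcripts in the levels of the 10 genes was not tested.

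**Figure D2:**
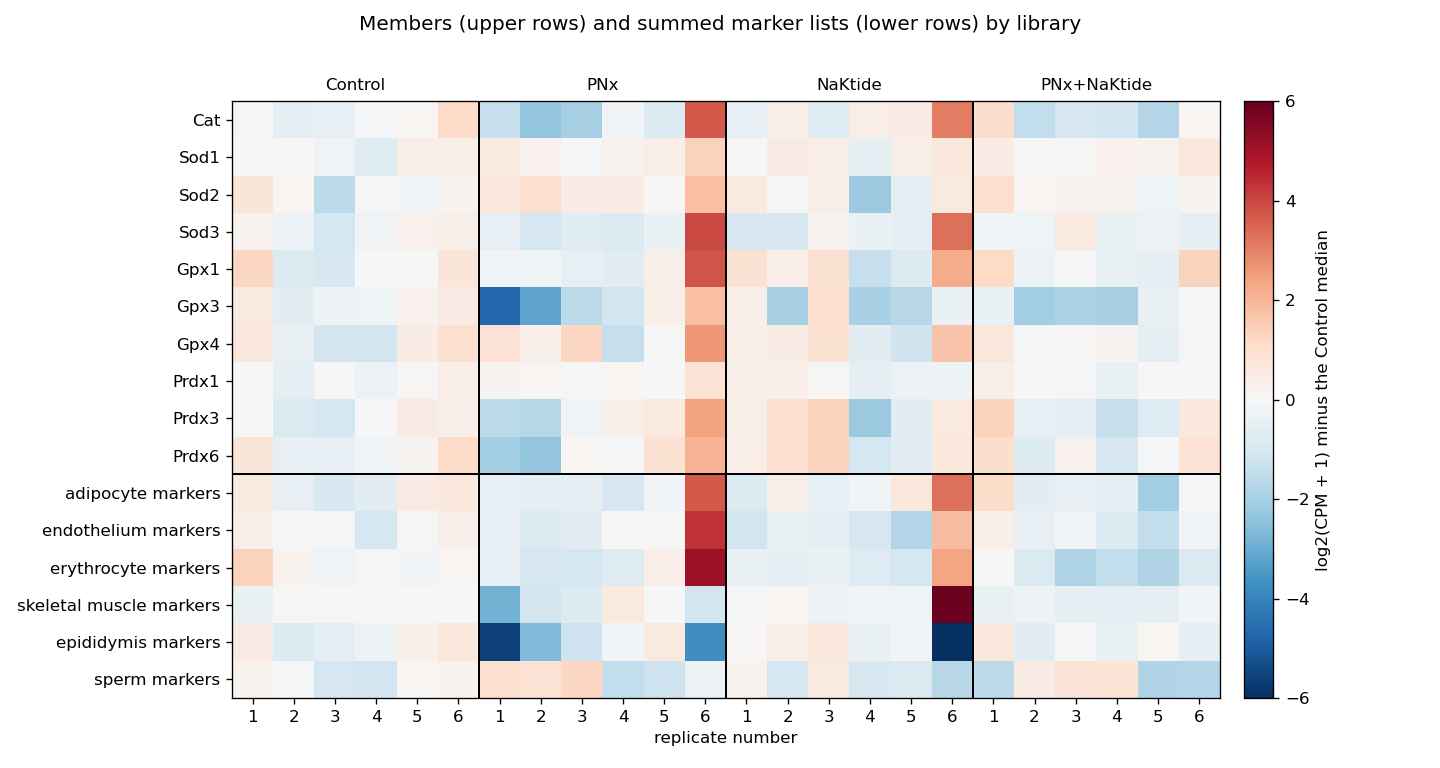
Each cell is log2(CPM + 1) minus the Control median for a gene (upper 10 rows) or for a summed marker list (lower 6 rows), in the 24 libraries ordered by group and replicate. The column of PNx replicate 6 is above the Control median for all 10 genes and for adipocyte, endothelial and erythrocyte markers. In PNx replicates 1 and 2, where epididymal markers are low, Cat, Sod3, Gpx1, Gpx3, Prdx3 and Prdx6 are below that median. The other 4 genes are above it there.

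Setting PNx+NaKtide against PNx addresses what adipocyte expression of NaKtide changes after nephrectomy. None of the 10 genes passed the edgeR test, and neither did any of the 26116 genes (0%), with a smallest BH-adjusted p of 0.350. At an unadjusted p under 0.05, 3309 genes (12.7%) were counted, and 1 of the 10 (Sod3, lower). DESeq2 called 1514 genes (5.88%), and of the 8 enzymes it gave a p only Prdx1, with a log2 fold change of -0.60 (BH-adjusted p = 0.0856). In edgeR all 10 log2 fold changes were below 0, from -0.24 for Sod1 to -2.12 for Sod3, with a median of -0.77 beside -0.37 over all genes. This comparison shares the PNx libraries with the one above, so its signs are not independent of it.

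The ranges of PNx+NaKtide and Control overlapped for all 10 genes. Cat had 1.66 to 17.7 CPM with a median of 3.32, near the PNx median of 3.31 and below the Control median of 7.97. Here, too, 4 of 6 libraries lay below the lowest Control library, on 2 to 5 counts each. Sod3 had 2.04 to 5.72 CPM with a median of 2.63, and Gpx1 had 4.99 to 21.04 CPM with a median of 6.99. Gpx3 had 17.3 to 74.0 CPM with a median of 37.9, and 3 of 6 libraries were below the lowest Control library. Gpx4 had 21.6 to 53.7 CPM, Sod1 53.6 to 83.5 CPM and Prdx1 25.3 to 44.8 CPM.

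With PNx replicate 6 and NaKtide replicate 6 left out, 7 of the 10 log2 fold changes between PNx+NaKtide and PNx were above 0, and the median was 0.38. Cat had 1.10 (SE 0.60), Sod3 0.70 (SE 0.46) and Gpx1 0.67 (SE 0.52), where the fit with all libraries gave -1.77 (SE 0.97), -2.12 (SE 0.98) and -1.23 (SE 0.75). Sod2, Gpx4 and Prdx1 kept a value below 0, at -0.28, -0.37 and -0.09. None of the 10 genes and none of the 25551 genes tested (0%) then passed in edgeR, with 5045 genes at an unadjusted p under 0.05. The smallest BH-adjusted p of the 10 was 0.291, for Cat.

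**Figure D3:**
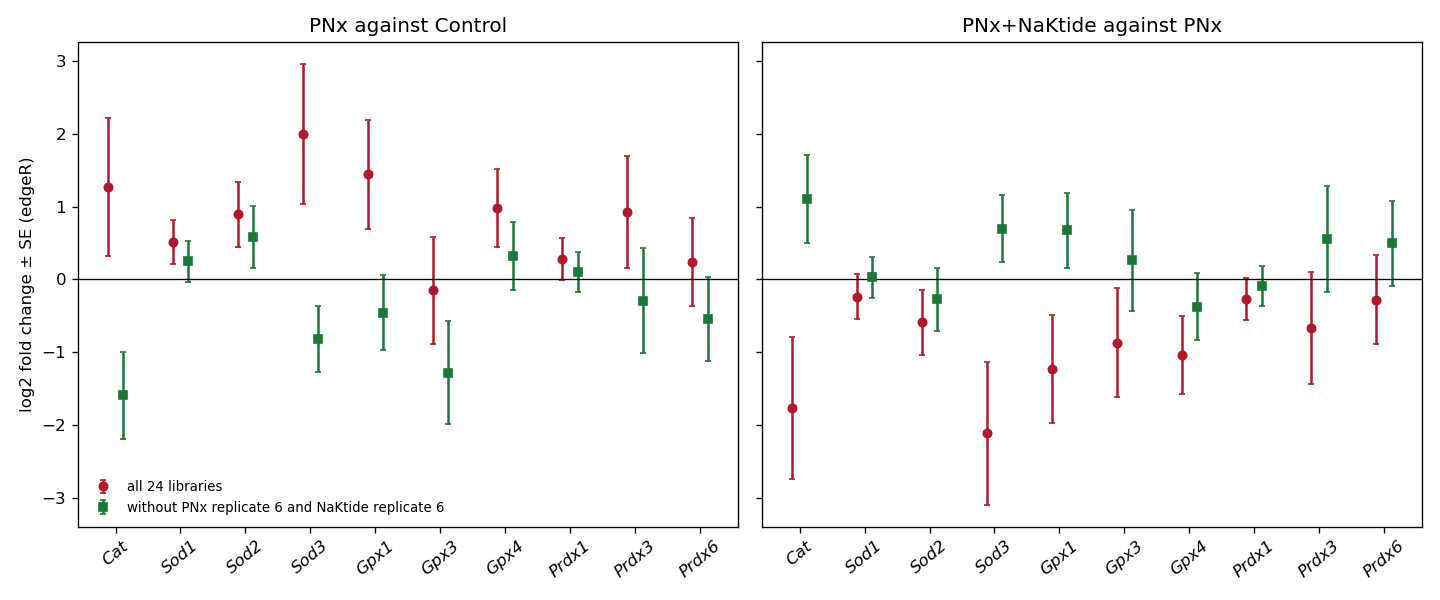
Log2 fold change with its standard error (edgeR) for each gene in PNx against Control (left) and PNx+NaKtide against PNx (right), with all 24 libraries (circles) and without PNx replicate 6 and NaKtide replicate 6 (squares). For Cat, Sod3, Gpx1, Prdx3 and Prdx6 the 2 fits stand on opposite sides of 0 in both panels.

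NaKtide against Control asks what the peptide does in sham-operated animals. No gene passed the edgeR test (0%), and 1031 genes (3.95%) and none of the 10 had an unadjusted p under 0.05, while DESeq2 called 3 genes (0.0116%), none of them among the 8 enzymes it tested. Cat had a median of 10.4 CPM in NaKtide with 75.0 CPM in replicate 6, and a log2 fold change of 1.14 (SE 0.96), which was -0.12 (SE 0.58) without the 2 libraries. Sod3 had a median of 2.20 CPM with 43.3 CPM in replicate 6, and its log2 fold change of 1.497 (SE 0.97) became -0.55 (SE 0.49). Gpx3 had 19.2 to 157.8 CPM and a log2 fold change of -0.39 (SE 0.74). For Prdx1 the log2 fold change was 0.00, and without the 2 libraries it was 0.05 (SE 0.28).

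PNx+NaKtide against NaKtide asks what nephrectomy changes where the peptide is present. No gene was called (0%), and 1067 genes (4.09%) and none of the 10 had an unadjusted p under 0.05. DESeq2 called 2 genes (0.00776%), none of them among the 8 enzymes it tested. The largest log2 fold changes of the 10 were -1.64 (SE 0.98) for Cat and -1.62 (SE 0.98) for Sod3, and these were -0.37 (SE 0.59) and 0.42 (SE 0.50) without the 2 libraries. For the intracellular dismutases the values were near 0, at 0.02 (SE 0.31) for Sod1 and 0.26 (SE 0.46) for Sod2.

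The interaction asks whether the effect of nephrectomy differs between the NaKtide and GFP animals. No gene passed (0%), and 2421 genes (9.27%) had an unadjusted p under 0.05, among them Sod3 (log2 difference -3.61, SE 1.37, unadjusted p = 0.0141, BH-adjusted p = 0.492 in edgeR) and Cat (-2.91, SE 1.37, unadjusted p = 0.0430, BH-adjusted p = 0.528 in edgeR). DESeq2 called 94 genes (0.365%) and none of the 8 enzymes it tested. Without the 2 libraries the interaction was 1.24 for Sod3 (SE 0.67) and 1.22 for Cat (SE 0.83), on the other side of 0. Thus a difference between the 2 nephrectomy effects was not shown for any of the 10 genes.

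Within the glutathione peroxidase family the studied enzymes were a minor share of most libraries. Gpx5 took 68.6% to 77.6% of the summed FPKM of the 8 family members in Control, Gpx3 11.3% to 15.0%, Gpx4 2.88% to 7.26% and Gpx1 0.947% to 3.18%. In PNx+NaKtide the share of Gpx5 was 79.0% to 86.1%, above every Control library, and that of Gpx3 was 2.58% to 8.95%, below every Control library. PNx+NaKtide was not tested against Control. For Gpx5 itself the log2 fold change was -0.87 when PNx was set against Control (SE 0.78, BH-adjusted p = 0.461). It was 1.24 when PNx+NaKtide was set against PNx (SE 0.78, BH-adjusted p = 0.450). In 3 libraries Gpx5 was under 10% of the family. In PNx replicate 1 Gpx4 had 69.4% of the family, in PNx replicate 6 Gpx3 had 37.3% and Gpx4 29.4%, and in NaKtide replicate 6 Gpx4 had 43.5% and Gpx3 22.1%. These are also the 3 libraries with the lowest sums of epididymal markers, at 24.9, 93.2 and 18.1 CPM.

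**Figure D4:**
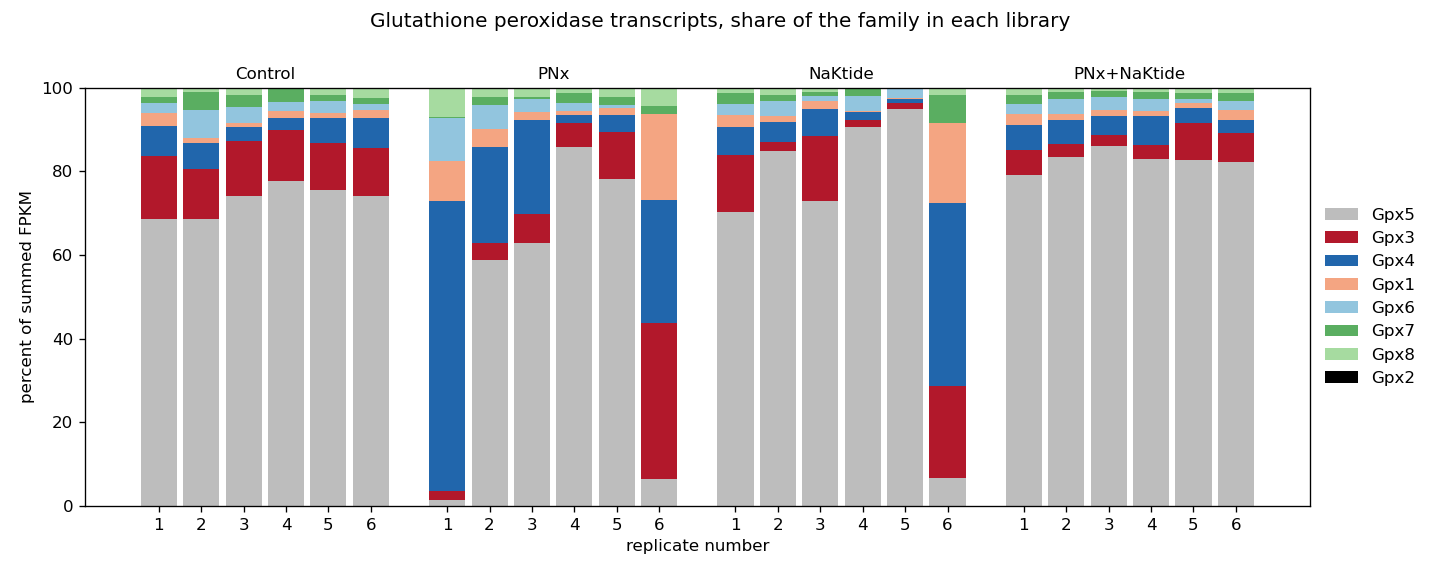
Share of each of the 8 glutathione peroxidase genes in their summed FPKM, in percent, stacked for each library by group and replicate. Gpx5 fills 58.8% to 95.0% of 21 libraries and 1.45% to 6.71% of PNx replicates 1 and 6 and NaKtide replicate 6, where Gpx4, Gpx3 and Gpx1 make up most of the rest.

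The genes around the 10 enzymes were taken as 6 lists of their pathway, and none of the listed genes was called by edgeR in any of the 5 comparisons. In PNx against Control an unadjusted p under 0.05 was reached by 0 of 4 tested other glutathione peroxidases, 1 of 3 other peroxiredoxins (lower), 3 of 11 genes of the thioredoxin and glutaredoxin system (1 higher, 2 lower), 0 of 6 genes of glutathione supply, 1 of 7 genes of cofactor supply (higher) and 0 of 10 tested sources of superoxide and peroxide, where 25.4% of all genes reached it. Srxn1, the sulfiredoxin that repairs overoxidized peroxiredoxins, had the smallest p of all of them. It ranged from 26.1 to 65.4 CPM in Control and from 4.19 to 25.0 CPM in PNx, so these groups did not overlap. Its log2 fold change was -1.95 (SE 0.48, unadjusted p = 0.000389, BH-adjusted p = 0.127 in edgeR). The lower level was not particular to PNx. Means were 47.0 CPM in Control, 20.1 in NaKtide, 12.3 in PNx and 22.3 in PNx+NaKtide. In NaKtide against Control the log2 fold change of Srxn1 was -1.20 (SE 0.47, unadjusted p = 0.017 in edgeR, not called). Prdx5, a peroxiredoxin whose exons overlap Trmt112 on the opposite strand, had a log2 fold change of -0.85 (SE 0.38, BH-adjusted p = 0.172).

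On the other side stood Glrx2, a mitochondrial glutaredoxin named here after its values were seen, with 1.76 (SE 0.64, BH-adjusted p = 0.139), and Sephs2, which makes the selenium donor for selenocysteine, with 1.79 (SE 0.65, BH-adjusted p = 0.140). Glrx2 was at 18.7 to 23.7 CPM in PNx replicates 1 to 3 and at 1.57 to 10.2 CPM in replicates 4 to 6, so the first 3 libraries carried its mean. Sephs2 likewise was at 29.5 to 30.6 CPM in PNx replicates 1 to 3 and at 1.57 to 17.0 CPM in the others. The same 3 libraries had male germ cell markers (8 genes) that summed to 85.2 to 194.8 CPM, against at most 52.4 CPM elsewhere. Other picks of the lists were Gpx6 (-1.17), Slc7a11 (-0.12), G6pdx (-0.41), Pstk (-0.50), Nox1 (-0.47) and Noxo1 (1.81), each a log2 fold change in PNx against Control with a BH-adjusted p of 0.203 to 0.893. Exons of G6pdx, Pstk, Sephs2, Nox1 and Noxo1 also overlap opposite-strand genes, and if the opposite strand was counted, these values would be mainly those of the partners.

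For each of the 10 enzymes the gene with the most similar pattern was found by Spearman correlation of log2(CPM + 1) over the 24 libraries, among 5265 genes with a mean of at least 10 CPM. This describes libraries that share depth and tissue makeup and carries no test. Cat was closest to Car3 (carbonic anhydrase of muscle and fat, rho = 0.927), Prdx6 to the chaperone gene Hspa8 (0.934), Prdx3 to Prdx6 (0.909), Gpx1 to Copg1 (0.913), Gpx4 to Eif3c (0.912) and Gpx3 to Man2b1 (0.890). The dismutases had looser neighbours, with Sod2 closest to Mprip (0.836), Sod3 to Col4a2 (0.765), Sod1 to Uqcr10 (0.737), and Prdx1 likewise to Ufc1 (0.706). Among the 10 themselves the weakest pairs were Sod3 with Prdx1 (-0.02) and Cat with Sod2 (-0.01).

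Some of the 10 transcripts have near copies elsewhere that could exchange reads with them. Of the 50-base windows in Gpx4 transcripts, 34.7% (627 of 1805) also occur in Gpx4-ps2, a transcribed processed pseudogene (chr10:45875291-45876086), which had 28.1 ± 15.1 CPM in Control (SD, n = 6) against 36.2 ± 21.5 CPM for Gpx4. In PNx the pseudogene had 51.7 ± 57.4 CPM with its highest value, 165.7 CPM, and a log2 fold change of 0.88 (BH-adjusted p = 0.265), beside 0.98 for Gpx4. The split between this pair is therefore uncertain. For Sod2 21% of windows occur in other genes and for Prdx1 8.81%, for Sod1 3.42% (all in the pseudogene Gm8566) and for Prdx6 0.156%. Cat, Sod3, Gpx1, Gpx3 and Prdx3 share none.

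Promoters were searched for the core of the antioxidant response element, TGACNNNGC, the site bound by NRF2, on both strands from 250 bases before to 50 bases after the RefSeq start site in GRCm38.p6. Of the 8 genes with a window in that set (not Sod3 and Prdx6), Sod1 and Prdx1 held 1 match each. By window, 2 of the 11 windows of these 8 genes held a match, beside 12.4% of all windows (4071 of 32851). Sod1 and Prdx1 also had the smallest spread in CPM over the 24 libraries, and a link between match and spread was not tested. A stretch of each of their windows is shown with the match in capitals, which reads as the reverse complement of the searched letters. The Sod1 sequence is chr16:90220666-90220754 on the plus strand, with the match starting at -56 from the start site, and the Prdx1 sequence is chr4:116685426-116685514 on the plus strand, with the match at -133.
Sod1 promoter: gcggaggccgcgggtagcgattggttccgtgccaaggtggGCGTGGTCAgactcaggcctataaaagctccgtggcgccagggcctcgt
Prdx1 promoter: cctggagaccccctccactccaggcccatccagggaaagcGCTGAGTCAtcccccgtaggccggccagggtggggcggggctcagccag
A match in letters describes the sequence only, and binding was not measured in these samples.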

How the data were processed

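RNA from mouse adipose tissue was sequenced by the authors as paired reads, trimmed with Trimmomatic 0.38, aligned to GRCm38 with HISAT2 2.1.0 and counted per gene. The annotation release and the strand setting of the counting are not given in the sources used here. Files deposited by the authors hold raw counts, a normalized version of them (not used here) and FPKM. The 10 genes and all lists were chosen with earlier results of these data known. Groups came from the labels. Genes with more than 10 counts in all were tested with edgeR 4.0.16 in R 4.3.3 (TMM scaling, robust quasi-likelihood F-test, 1 fit of 4 group means over 24 libraries, 95% intervals) with Benjamini-Hochberg (BH) adjusted p under 0.1 over 26116 genes. Standard errors were derived from the F statistic and the log2 fold change. The dispersion common to all genes was 0.509. Libraries of the same group always differed by more than sampling noise (chi-square per degree of freedom of at least 1.57). Gene models were GENCODE M21 (54165 of 54232 identifiers matched). Named were the 10 genes, their copies, in each pathway list the gene of highest mean CPM and that of largest change in PNx against Control, Gpx5 throughout, and the closest gene by Spearman correlation. The result for 1 gene that this rule named is not reported here. Alternatives were DESeq2 1.42.0, limma 3.58.1 (voom, and FPKM on the log2 scale with pseudocounts of 1 and 0.1, which understates the change of low genes), other scalings and filters, a replicate block and left-out libraries.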

Additional observations from a re-analysis of the deposited data

Results flagged for a closer look

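In groups of 6 libraries, the gap of the highest or lowest library to its neighbour was compared with the range of the group (Dixon's criterion). For independent, normally distributed values, chance alone meets it in about 1 of 20 groups. The CPM values were not transformed and the 10 genes share the same libraries, so that rate does not carry over here. Of the 40 combinations of a gene and a group, 15 met the criterion, and 9 of these were PNx replicate 6. That library had 113 CPM for Cat, 140 for Sod1, 34.0 for Sod2, 70.2 for Sod3, 119 for Gpx1, 272 for Gpx3, 204 for Gpx4, 65.7 for Prdx1 and 23.8 for Prdx3. NaKtide replicate 6 stood apart for Cat (75.0 CPM), Sod3 (43.3 CPM) and Gpx1 (40.1 CPM). The others were Cat in Control replicate 6 (18.7 CPM), Sod2 in PNx+NaKtide replicate 1 (18.8 CPM) and Sod3 in PNx+NaKtide replicate 3 (5.72 CPM). All 15 were the highest library of their group. No interaction of surgery and transduction passed the BH-adjusted threshold for any of the 10 genes.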

How the results depend on the processing

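The 10 genes gave 472 single values with a p under 30 alternatives, of which 407 kept their direction and side of the threshold, 18 newly passed it in the same direction, none lost it and 47 changed sign, 3 of which also newly passed it (21 in all). The cause was not tested except where libraries were left out. In PNx against Control the 20 called genes became 8696 with DESeq2 size factors, 4102 with library size, 1 without a filter, 2159 with filterByExpr, 7764 with DESeq2, 16578 with voom, 0 with the compared groups only, 0 at an adjusted p under 0.05, 7 with FPKM at either pseudocount, 0 without PNx replicates 1 to 3 and 5575 without PNx replicate 6 and NaKtide replicate 6, and single left-out libraries gave 0 to 8645. Of the 10 genes, 6 were called with size factors (Sod1, Sod2, Sod3, Gpx1, Gpx4 and Prdx1), 2 with filterByExpr (Sod1 and Sod2), 5 of 8 with DESeq2 (which gave no p for Cat and Sod3), 5 with voom (Cat and Gpx3 and Prdx6 lower, Sod2 and Gpx4 higher), 1 without the 2 libraries and 0 to 1 without single libraries. The all-gene median log2 fold change, 0.36 with TMM, was 0.76 under size factors and 0.70 under library size. In PNx+NaKtide against PNx, DESeq2 called 1514 genes and 1 of 8, voom 11071 and FPKM 4 at either pseudocount. NaKtide against Control gave 3 genes with DESeq2, 2 with voom, and 1 and 2 with FPKM at pseudocounts of 1 and 0.1, and PNx+NaKtide against NaKtide gave 2 with DESeq2 and 1 with FPKM at 0.1. The interaction gave 94 genes with DESeq2, 6593 with voom, and 0 to 1 without single libraries.

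Replicate numbers are shared between groups, but same-numbered libraries deviated together with r over 0.1 in only 19 of 36 pairs (r from -0.589 to 0.706, median 0.121, beside a median of -0.053 between libraries of different numbers), so they were not taken as paired. With the replicate block 1 gene was called in PNx against Control and 2 in the interaction.

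Log2 fold changes that changed sign in PNx against Control were Gpx3 with library size (0.20) and without PNx replicates 1 to 3 (0.63), Cat with the replicate block (-0.40), Cat with FPKM at pseudocounts of 1 (-0.066) and 0.1 (-0.35), Prdx6 with FPKM at 0.1 (-0.036), and with voom Cat (-2.08), Sod3 (-0.61), Gpx1 (-0.20), Prdx3 (-0.92) and Prdx6 (-1.11). Without PNx replicate 6 and NaKtide replicate 6 they were Cat (-1.59), Sod3 (-0.82), Gpx1 (-0.46), Prdx3 (-0.29) and Prdx6 (-0.54). In PNx+NaKtide against PNx they were with voom Cat (1.17), Sod1 (0.0041), Sod3 (0.66), Gpx1 (0.30), Gpx3 (1.10), Prdx3 (0.71) and Prdx6 (0.85), with FPKM at 0.1 Gpx3 (0.0069) and Prdx6 (0.019), and without the 2 libraries Cat (1.10), Sod1 (0.026), Sod3 (0.70), Gpx1 (0.67), Gpx3 (0.26), Prdx3 (0.55) and Prdx6 (0.49).

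Leaving out single libraries moved the log2 fold change in PNx against Control from -1.58 to 1.62 for Cat, -0.82 to 2.23 for Sod3, -0.46 to 1.81 for Gpx1, -1.28 to 0.11 for Gpx3, -0.28 to 1.17 for Prdx3 and -0.54 to 0.51 for Prdx6, the lowest value each time being that without PNx replicate 6. In PNx+NaKtide against PNx the ranges were -2.45 to 1.09 for Cat, -0.33 to 0.026 for Sod1, -2.39 to 0.69 for Sod3, -1.53 to 0.67 for Gpx1, -1.14 to 0.26 for Gpx3, -1.27 to 0.54 for Prdx3 and -0.52 to 0.49 for Prdx6, with the highest value without PNx replicate 6. Depth limits Sod3 and Prdx3 most, at 35 counts each over the 6 Control libraries.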
